A study of Homo sapiens with 8 samples.

Results

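The comparison described here asked whether 4-hydroxytamoxifen (4-OHT) changed gene expression by the same amount in SNORA13 knockout cells as in wild-type cells. The cells were BJ, an established line of human skin fibroblasts, carried as the genotypes BJ-HRAS WT and BJ-HRAS SNORA13 KO, so every group shared the HRAS background. WT clones 15 and 54 and KO clones 66 and 69 were each sequenced as total RNA without 4-OHT and after 7 days with 100 nM (Z)-4-Hydroxytamoxifen, which gives 8 libraries in 4 groups of 2. All 8 libraries entered the comparison. For each clone the log2 response was the level with 4-OHT minus the level without it, and the mean response of the KO clones was set against that of the WT clones, a quantity called the difference of responses below. The deposited table lists 58870 genes, of which 16542 passed a filter on low values and were tested. With 2 clones per genotype, p-values measure only the spread between these clones.

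SNORA13 is a small nucleolar RNA of the box H/ACA class, a class known for guiding the conversion of uridine to pseudouridine in other RNAs. 4-OHT is widely used to switch on proteins fused to the hormone-binding part of the estrogen receptor, and cells carrying such an HRAS fusion respond with oncogene-induced senescence. The labels used here name HRAS and 4-OHT but do not describe the construct. In senescence, p53 and its target p21 (CDKN1A) and the RB proteins stop the cell cycle: E2F factors are held inactive, genes for DNA replication and mitosis are shut down, the nuclear lamina protein lamin B1 (LMNB1) and the chromatin protein HMGB2 are lost, and secreted factors such as interleukins and matrix metalloproteinases are made.

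Sequencing totals ranged from 22.058 to 24.908 M reads. SNORA13 itself, a short RNA poorly captured by such libraries, had 4 to 7 reads in each of the 4 WT libraries and 0 in each of the 4 KO libraries, which fits the genotype labels. Its host transcript EPB41L4A-AS1 differed in response by -0.56 ± 0.19 (log2, SE; limma adjusted p = 0.13). Fibroblast markers were high in every library, with a summed level of 3431 to 5726 RPKM, whereas endothelial markers summed to 0.919 to 2.39 RPKM immune markers to 9.24 to 16.9 RPKM and melanocyte and neural markers to 7.86 to 21.1 RPKM. Epithelial markers summed to 269 to 802 RPKM, of which KRT18 made up 258 to 779 RPKM; it was highest in the untreated WT clones. The cytoplasmic RNAs RN7SL1 and RN7SL2 took 9.18 to 10.1% of reads in the untreated libraries and in treated WT clone 15 (9.72%), but 14.8 to 16.1% in the other treated libraries. Their part in the results was not tested. HRAS, whose reads cannot be divided between the cell's own gene and an introduced copy, stood at 257 and 235 RPKM in untreated WT clones 15 and 54 and at 279 and 305 RPKM after treatment. In KO clones 66 and 69 it went from 202 and 198 to 363 and 334 RPKM, a difference of responses of 0.55 ± 0.13 (limma adjusted p = 0.057).

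The clearest difference was in cell division genes, which rose far more with 4-OHT in the KO clones than in the WT clones. At an adjusted p of at most 0.05 (limma, Benjamini-Hochberg over all genes tested), 791 genes had a higher response in KO than in WT, or 4.78% of those tested, and 550 had a lower one, or 3.32%. Over the 791 genes the median log2 response was 0.14 in WT and 1.46 in KO. Over the 550 genes it was 0.09 in WT and -0.78 in KO. A 2-fold or larger difference between responses was reached by 509 of the genes called higher and by 192 of those called lower. The responses of both KO clones lay outside the range of the WT clones for every called gene, as they did for 28.7% of all genes above and 29.9% below. In bulk RNA, fewer cells of a kind and less RNA per cell cannot be told apart, so these values do not say whether more KO cells were dividing or each held more of these messages. Both counts fell whichever clone was left out. Such a fit has a lone clone in a genotype and fewer residual degrees of freedom. A fall, here or in a list below, therefore does not by itself show dependence on a particular clone.

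**Figure D1:**
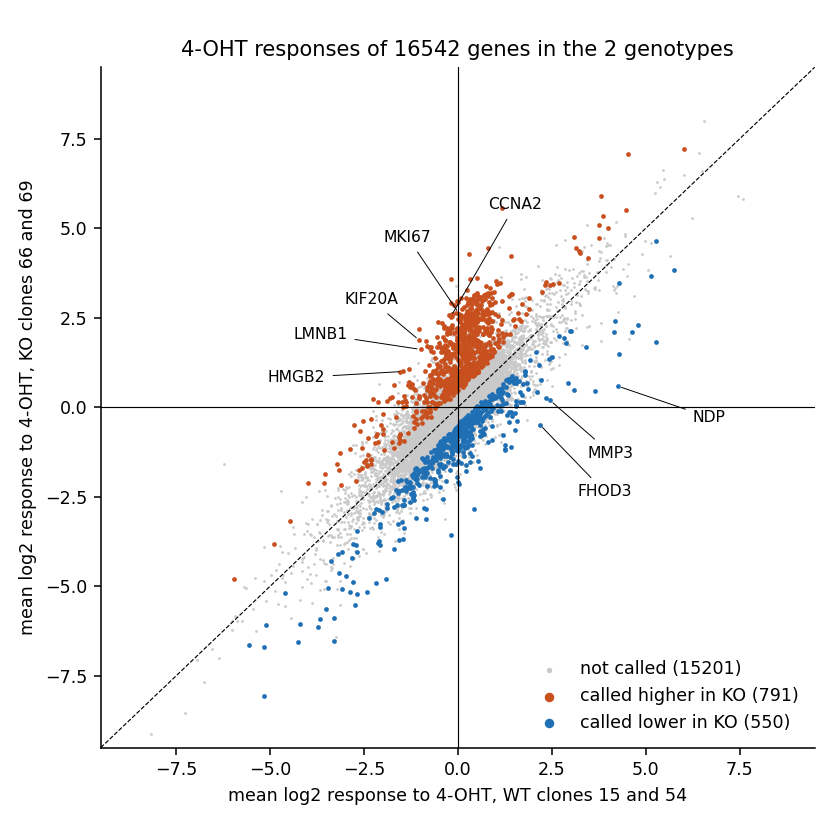
Mean log2 response to 4-OHT in the WT clones (x axis) against the KO clones (y axis), 1 point per tested gene; the dashed line marks equal responses. The 791 genes called higher in KO gather near 0 on the WT axis and above 0 on the KO axis, with MKI67 and CCNA2 among them, and the 550 called lower lie below the line.

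Mitosis genes had the largest median difference of the 26 lists. The lists were drawn up with earlier results of these data known, so their counts and ranks are descriptions and no independent support. Over all genes tested, 4.78% were called higher and 3.32% lower, the shares to set beside the counts of each list. All 79 tested members were called higher in KO and none lower, with a median log2 response of 0.30 in WT and 2.45 in KO and a median difference of 2.15, against -0.01 over all genes tested. In WT 33 of them rose and 7 fell, where 25.8% of all genes rose and 24.2% fell. In KO all 79 rose, where 28.8% of all genes rose and 27.4% fell. The smallest difference in the list was that of BUB3, a spindle checkpoint protein, at 0.48, and the largest that of NUF2, a kinetochore protein, at 3.09. Leaving out a clone kept 71 to 75 of the 79 calls.

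MKI67, which encodes the proliferation marker Ki-67, was not called in WT: it stood at 5.02 and 6.90 RPKM without and at 5.80 and 6.24 RPKM with 4-OHT in clones 15 and 54. In KO clones 66 and 69 it went from 2.31 and 2.04 RPKM to 14.0 and 13.8 RPKM. Untreated KO clones were thus the lowest of the 4 groups and treated KO clones the highest, without overlap, and the difference of responses was 2.59 ± 0.17 (limma adjusted p = 0.0019). BIRC5, the survivin subunit of the chromosomal passenger complex, rose in both genotypes, from 24.8 and 38.2 to 39.2 and 51.0 RPKM in WT and from 9.30 and 9.69 to 81.1 and 80.9 RPKM in KO. UBE2C, the ubiquitin-conjugating enzyme of the anaphase-promoting complex, did likewise, with log2 responses of 0.57 and 0.66 in WT and 2.92 and 2.80 in KO. PBK, a mitotic kinase, had responses of 0.10 and 0.22 in WT and 2.81 and 2.80 in KO. The KO clones lay close together in level for these genes, whereas the WT clones were further apart, as for untreated BIRC5. The KO response exceeded the WT response in each pairing of clones, as for every gene called higher.

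KIF20A, a kinesin needed for cytokinesis, went in opposite directions. It fell from 18.3 and 22.7 RPKM to 9.22 and 10.8 RPKM in WT clones 15 and 54, and rose from 7.02 and 5.78 RPKM to 24.7 and 22.6 RPKM in KO clones 66 and 69. The order of the genotypes was reversed by treatment, with no overlap at either time, and the difference of responses was 2.90 ± 0.12 (limma adjusted p = 0.0013). Of the 79 mitosis genes, 14 had negative responses in both WT clones and positive ones in both KO clones, as did 4.43% of all genes tested.

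Of 51 DNA replication genes tested, 45 were called higher and none lower, with median log2 responses of 0.20 in WT and 1.82 in KO. The minichromosome maintenance helicase was represented by MCM2 to MCM7, all called higher with differences of 1.60 to 2.47. MCM7 itself went from 18.2 and 29.4 RPKM to 30.7 and 40.7 RPKM in WT, and from 9.44 and 7.76 RPKM to 72.7 and 73.9 RPKM in KO. PCNA, the sliding clamp of DNA polymerases, had responses of 0.29 and 0.28 in WT and 1.80 and 1.81 in KO. FEN1, the flap endonuclease of Okazaki fragment maturation, had 0.66 and 0.64 in WT and 2.47 and 2.47 in KO. ASF1B, a histone chaperone, turned: its responses were -0.51 and -0.21 in WT and 2.17 and 2.24 in KO, a difference of 2.57 ± 0.15 (limma adjusted p = 0.0017). The 6 members not called were RFC1, POLD2, POLD3, RPA2, TIPIN and CDC7, with differences from -0.03 for TIPIN to 1.16 for POLD3. Without KO clone 69, 28 of the 51 were called, and without KO clone 66, 31.

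Deoxynucleotide supply was called higher for 6 of 12 genes and lower for none. RRM2, the small subunit of ribonucleotide reductase, fell in WT, from 14.0 and 17.9 RPKM to 10.8 and 15.5 RPKM, and rose in KO, from 6.91 and 6.13 RPKM to 30.5 and 31.1 RPKM. TK1, thymidine kinase of the S phase, also fell in WT (35.3 and 47.3 RPKM to 21.7 and 30.9 RPKM) and rose in KO (14.0 and 13.4 RPKM to 40.9 and 40.3 RPKM). In homologous recombination and the DNA damage checkpoint, 19 of 30 genes were called higher and none lower, with a median difference of 1.29. FANCD2, of the Fanconi anaemia pathway, had responses of -0.49 and -0.29 in WT and 2.15 and 1.79 in KO. HELLS, a chromatin remodeller, had -0.18 and -0.18 in WT and 1.46 and 1.52 in KO. Of the 30 recombination and checkpoint genes, 6 were called without KO clone 69, 9 without KO clone 66 and 10 without WT clone 54.

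Replication-dependent histone genes are transcribed in S phase. Of 55 tested, 53 were called higher and none lower, with median responses of 0.26 in WT and 2.40 in KO. The exceptions were HIST1H2BC (0.91, limma adjusted p = 0.07) and HIST4H4 (0.65, limma adjusted p = 0.091). HIST2H3D, an H3 gene that is not in the list, stood at 55.0 and 103 RPKM in untreated and 70.5 and 128 RPKM in treated WT clones, and went from 31.8 and 31.2 RPKM to 377 and 375 RPKM in KO. The treated KO clones were thus about equal and far above the other 6 libraries, and the difference of responses was 3.24 ± 0.09 (limma adjusted p = 0.0013). HIST1H3B reached 1237 and 1318 RPKM in treated KO clones against 357 and 586 RPKM in treated WT clones. HIST1H3H went from 34.2 and 36.5 to 302 and 319 RPKM in KO and from 56.4 and 78.7 to 71.9 and 111 RPKM in WT. HIST1H4A and HIST1H4I turned, with WT responses of -0.83 and -0.25 for HIST1H4A and -0.23 and -0.32 for HIST1H4I. Histone genes have near-identical copies, such as HIST2H3A, HIST2H3C and HIST2H3D or HIST2H4B and its twin, and how reads were divided among copies is not given in the sources used here, so the value of a single copy is uncertain.

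**Figure D2:**
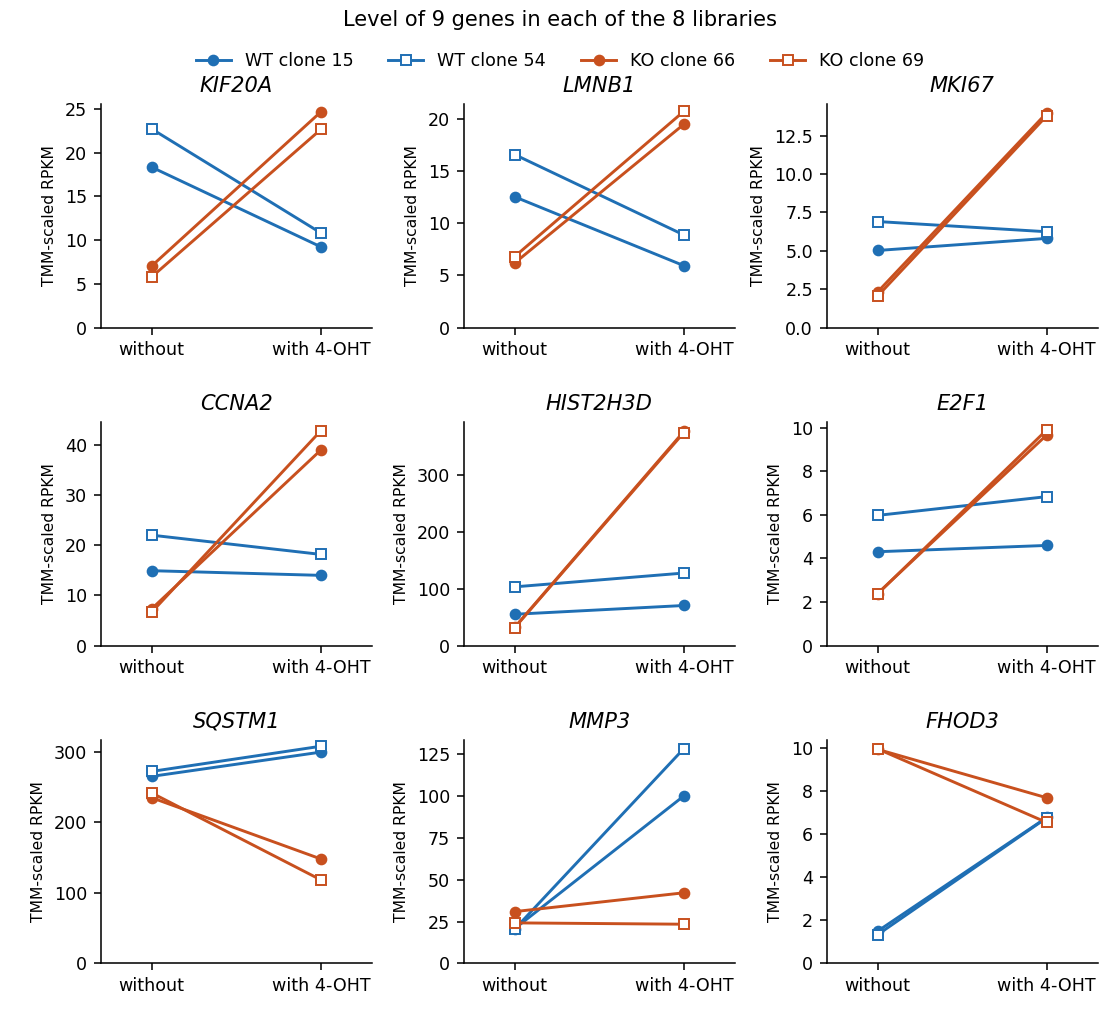
Level of 9 genes in TMM-scaled RPKM without and with 4-OHT, 1 line per clone, WT blue and KO orange. For KIF20A, LMNB1 and CCNA2 the KO clones start below and end above the WT clones, and for SQSTM1 and MMP3 the treated KO clones end below the treated WT clones.

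The regulators of these genes were called less uniformly. Among cyclins, E2F factors and RB regulators, 13 of 29 were called higher and 1 lower, with a median difference of 0.50. CCNA2, cyclin A2 of S phase and G2, stood at 14.9 and 22.0 RPKM without and 14.0 and 18.2 RPKM with 4-OHT in WT and rose from 7.31 and 6.64 RPKM to 39.1 and 42.9 RPKM in KO, a difference of 2.72 ± 0.14 (limma adjusted p = 0.0013). E2F1, an activator of S-phase genes, stood at 4.31 and 5.97 RPKM without and 4.60 and 6.84 RPKM with 4-OHT in WT, and went from 2.39 and 2.37 RPKM to 9.67 and 9.91 RPKM in KO. FOXM1, which activates mitotic genes, had responses of 0.02 and 0.13 in WT and 1.58 and 1.79 in KO. MYBL2, which works with the MuvB complex on the same genes, turned, with -0.90 and -0.71 in WT and 1.79 and 1.65 in KO. The gene called lower was CDK6, a G1 kinase, with a difference of -0.68. CCND1, cyclin D1, responded strongly in all clones (2.93 and 2.61 in WT, 2.64 and 2.50 in KO) and was not called. Among 7 CDK inhibitors tested only CDKN2D (1.18) and CDKN3 (1.37) were called, both higher. Without KO clone 69, 5 of the 29 cyclin and E2F genes were called, 6 without KO clone 66 or WT clone 54, and 7 without WT clone 15.

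Chromatin genes associated with senescence often had opposite signs in the genotypes. Of 24 tested, 12 were called higher in KO and none lower, and 12 had negative responses in both WT clones and positive ones in both KO clones. The median response was -0.09 in WT and 0.80 in KO. LMNB1 fell from 12.5 and 16.6 RPKM to 5.93 and 8.87 RPKM in WT clones 15 and 54, and rose from 6.17 and 6.79 RPKM to 19.5 and 20.7 RPKM in KO clones 66 and 69. HMGB2 fell from 43.1 and 57.9 RPKM to 16.2 and 20.4 RPKM in WT, and rose from 21.9 and 19.6 RPKM to 37.7 and 45.9 RPKM in KO. For LMNB1 the treated KO level exceeded every other library, whereas for HMGB2 the treated KO level overlapped that of the untreated WT clones. The differences of responses were 2.60 ± 0.12 and 2.46 ± 0.16, and both held in each of the 13 alternative analyses. HMGN2, a nucleosome-binding protein, turned as well (-0.81 and -0.73 in WT, 0.71 and 0.60 in KO), and its pseudogene HMGN2P3 showed the like values but may share its reads. LMNB2 rose in both genotypes, by 0.29 in WT and 1.79 in KO. Without KO clone 66 or KO clone 69, 6 of the 24 were called.

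Turning direction was assessed for all called genes. Among the 791 called higher, 213 had negative responses in both WT clones and positive ones in both KO clones, 420 had positive responses in all 4 clones, 66 had negative ones in all 4, and in 92 the clones of a genotype split. Among the 550 called lower, 166 had positive responses in both WT clones and negative ones in both KO clones, 230 had negative responses in all 4 clones, 92 positive ones in all 4, and 62 split. Over all genes tested the 2 kinds of turn made up 4.43% and 4.36%. A stricter count required that the response itself was called in both genotypes: 75 genes fell in WT and rose in KO, and 67 rose in WT and fell in KO. Without WT clone 54 these counts were 45 and 21, without KO clone 66 they were 26 and 13, without KO clone 69 they were 29 and 13, and without WT clone 15 they were 59 and 43.

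The genes that turned furthest toward a rise in KO, beside KIF20A, LMNB1, HMGB2 and MYBL2, included MND1, a meiotic recombination factor, with responses of -1.07 and -0.65 in WT and 2.08 and 1.65 in KO. IQGAP3, a scaffold protein of dividing cells, had -0.72 and -0.83 in WT and 1.63 and 1.74 in KO. STARD8, a START-domain protein, had -1.77 and -1.28 in WT and 0.62 and 1.33 in KO, at levels of 0.36 to 1.47 RPKM. ATAD2, a chromatin ATPase, had -0.77 and -0.70 in WT and 0.70 and 1.03 in KO. The pseudogene UBE2Q2P2 had -0.63 and -1.12 in WT and 0.77 and 1.25 in KO, and it may share reads with related copies. Its call was kept in 5 of the 13 alternatives, STARD8's in 9 and those of MND1, IQGAP3 and ATAD2 in 13.

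**Figure D3:**
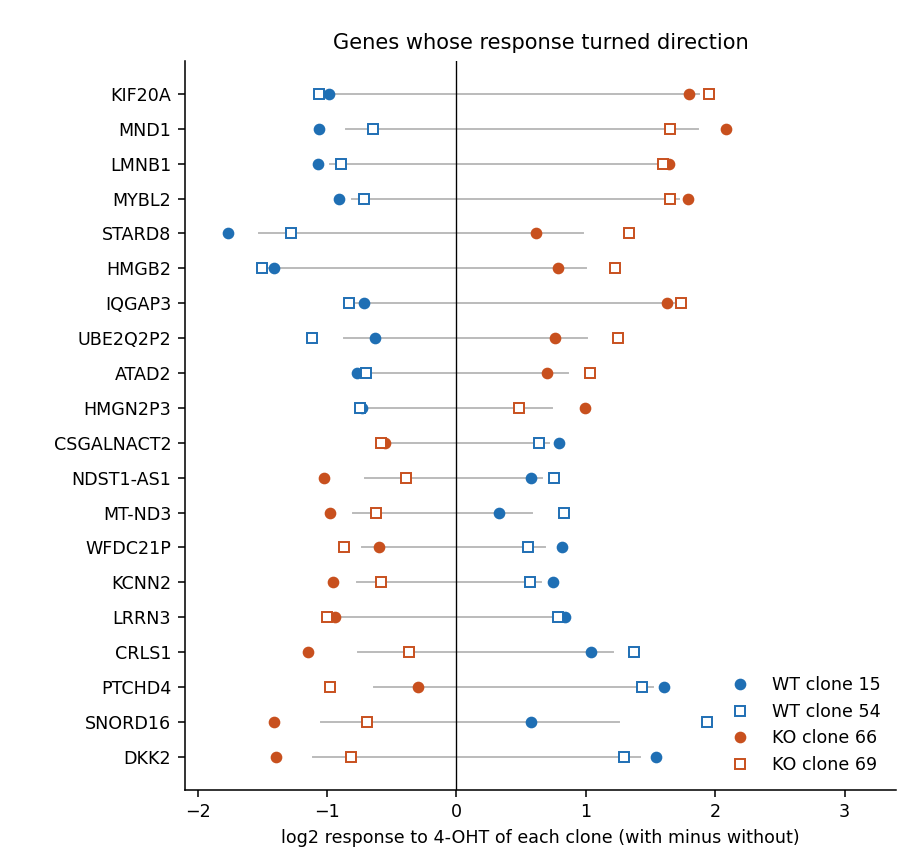
Log2 response to 4-OHT of each clone for the 20 genes that turned direction furthest, 10 each way; circles and squares are the 2 clones of a genotype and the grey bar joins the genotype means. WT and KO clones lie on opposite sides of 0 for each gene, KIF20A at the top and DKK2 at the bottom.

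Toward a fall in KO, FHOD3, a formin that assembles actin filaments, was the one gene among the 15 largest differences in that direction that had opposite signs in the genotypes. It rose from 1.50 and 1.33 RPKM to 6.77 and 6.75 RPKM in WT clones 15 and 54, and fell from 9.93 and 9.95 RPKM to 7.68 and 6.54 RPKM in KO clones 66 and 69. The genotypes were therefore far apart without 4-OHT and overlapped with it, and the difference of responses was -2.67 ± 0.16 (limma adjusted p = 0.0017). DKK2, a secreted modulator of Wnt signalling, rose from 0.318 and 0.521 RPKM to 1.12 and 1.43 RPKM in WT and fell from 4.03 and 2.02 RPKM to 1.47 and 1.10 RPKM in KO. LRRN3, a leucine-rich repeat membrane protein, rose from 14.4 and 16.6 RPKM to 25.9 and 28.5 RPKM in WT, and fell from 29.0 and 28.5 RPKM to 15.1 and 14.2 RPKM in KO, so that each genotype ended near where the other began. KCNN2, a calcium-activated potassium channel, had responses of 0.74 and 0.57 in WT and -0.96 and -0.58 in KO. CSGALNACT2, an enzyme of chondroitin sulfate synthesis, had 0.79 and 0.63 in WT and -0.55 and -0.58 in KO. CRLS1, the cardiolipin synthase, had 1.04 and 1.38 in WT and -1.15 and -0.37 in KO, and kept its call in 6 of 13 alternatives. PTCHD4, a patched-domain protein, had 1.61 and 1.43 in WT and -0.30 and -0.98 in KO. Its KO response was not itself called (limma adjusted p = 0.070), and its difference kept its call in 8 of 13 alternatives. The noncoding RNAs WFDC21P and NDST1-AS1 and the snoRNA SNORD16 turned the same way, SNORD16 from 2 to 12 reads a library.

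By arithmetic the difference of responses equals the genotype gap with 4-OHT minus the gap without it. Genes were called on that difference. For genes called higher, calling itself favours a low gap without 4-OHT and a high gap with it. For genes called lower it favours the reverse. The counts and median gaps of called genes are therefore descriptions, and the shares over all genes are no independent comparison. In these terms, both ends of the response contributed for most called genes. Of the 791 genes called higher, 674 had both KO clones below both WT clones without 4-OHT, and 725 had both above with it. The same held for 29.4% and 30.1% of all genes. For 609 the order was reversed in this way, and the median gap (log2, KO minus WT) went from -0.61 to 0.71. In the mitosis list the median gap went from -1.25 to 0.88, and in the histone list from -0.68 to 1.38. Of the 550 called lower, 381 had both KO clones above both WT clones without 4-OHT and 490 had both below with it, against 26.9% and 31.2% of all genes. Their median gap went from 0.31 to -0.54, and the order was reversed for 321.

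**Figure D4:**
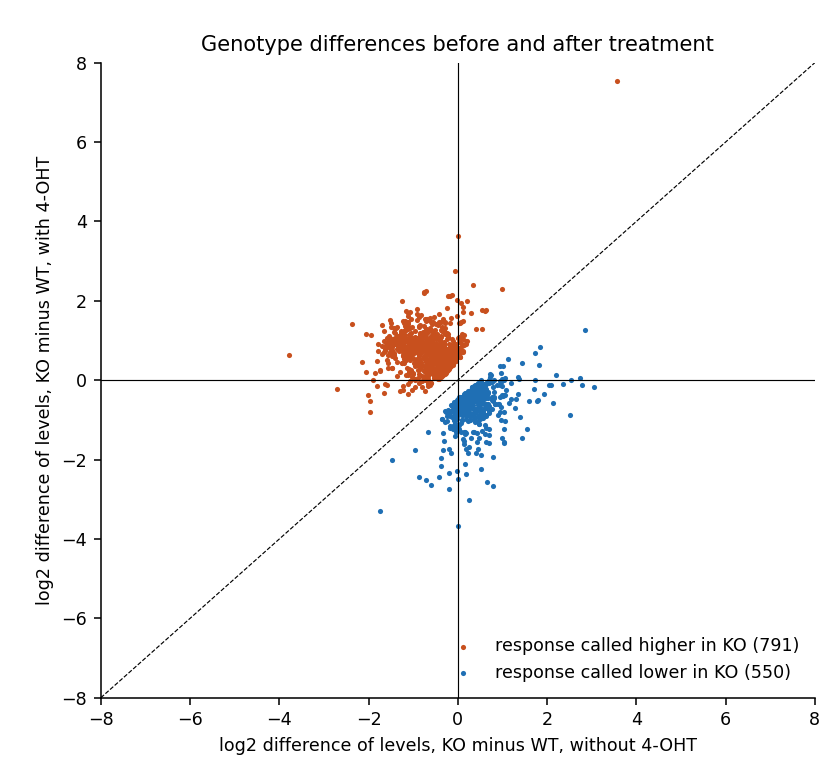
Log2 difference of levels between KO and WT clones without 4-OHT (x axis) and with it (y axis) for the called genes; the dashed line marks equal gaps. Genes called higher lie mostly in the upper left, below WT before and above WT after treatment, and genes called lower mostly in the lower right.

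Of the 791 genes called higher, 215 (27.18%) were in one of 6 cell division lists, against 0.26% of the genes not called. These lists were drawn up with earlier results known. Promoter sequence was compared because mitosis, replication and histone genes were called so often, and their promoters are known for characteristic elements: the CHR and CCAAT boxes of mitotic genes, E2F sites of replication genes and CCAAT boxes of histone genes. RefSeq windows of GRCh38.p14, from 250 bases before to 50 after each start, were matched by symbol to 578 of the 791 genes called higher, 412 of the 550 called lower and 11063 of the 16542 tested. Motifs were searched on both strands, and none contains another. CHR was read as TTTGAA or TTCGAA, and the CCAAT box by its name. E2F sites were read as TTTCCCGC, TTTCGCGC, TTTGCCGC or TTTGGCGC. The site of AP-1, the factor to which FOS belongs, was read as TGAGTCA or TGACTCA. CHR was found in 28.0% of windows of genes called higher and 9.5% of those called lower, against 11.5% of all. In the mitosis list it was found in 48 of 65 windows (73.8%). CCAAT was in 53.5% of windows of genes called higher, 36.2% of those called lower and 36.5% of all, and in 85.4% of the 48 histone windows. E2F letters were in 14.0%, 3.9% and 5.5%, and in 45.5% of the 44 DNA replication windows. AP-1 letters were in 1.2%, 4.6% and 3.3%. A match of letters is a description and shows no binding.

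The 120 bases before the start are shown for 6 genes called higher, and for KIF20A and LMNB1, which turned direction. The 6 genes had small p-values in their lists and hold the motif named above for their list. Some list members were left out of this choice, so genes with smaller p-values may be missing. Motif letters are in capitals, on either strand. CCNB2, cyclin B2 (chr15:59105026-59105145, plus strand), KIF11, a spindle kinesin (chr10:92593010-92593129, plus strand), and ZWINT, a kinetochore protein (chr10:56361260-56361379, minus strand), represent mitosis, with differences of responses of 2.14, 2.34 and 2.15. PCNA (chr20:5126623-5126742, minus strand) and MCM7 (chr7:100101398-100101517, minus strand) represent replication and HIST1H3H (chr6:27809931-27810050, plus strand) the histones. KIF20A lies at chr5:138178992-138179111 and LMNB1 at chr5:126776503-126776622, both on the plus strand.
CCNB2: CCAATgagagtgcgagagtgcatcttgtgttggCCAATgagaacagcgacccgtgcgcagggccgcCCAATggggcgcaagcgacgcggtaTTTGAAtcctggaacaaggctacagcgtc
KIF11: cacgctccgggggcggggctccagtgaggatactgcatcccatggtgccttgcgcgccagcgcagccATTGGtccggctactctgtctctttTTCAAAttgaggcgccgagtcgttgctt
ZWINT: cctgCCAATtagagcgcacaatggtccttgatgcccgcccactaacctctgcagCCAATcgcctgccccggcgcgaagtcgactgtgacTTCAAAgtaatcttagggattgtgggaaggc
PCNA: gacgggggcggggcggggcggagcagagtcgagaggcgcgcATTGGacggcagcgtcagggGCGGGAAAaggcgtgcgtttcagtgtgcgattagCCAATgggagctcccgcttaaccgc
MCM7: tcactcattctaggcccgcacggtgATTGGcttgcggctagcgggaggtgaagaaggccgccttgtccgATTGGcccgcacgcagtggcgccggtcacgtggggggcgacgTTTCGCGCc
HIST1H3H: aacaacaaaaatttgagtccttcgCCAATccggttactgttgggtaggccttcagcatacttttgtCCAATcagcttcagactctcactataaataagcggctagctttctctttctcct
KIF20A: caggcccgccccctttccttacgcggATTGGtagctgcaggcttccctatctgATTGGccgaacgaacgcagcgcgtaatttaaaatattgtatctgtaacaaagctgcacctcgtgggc
LMNB1: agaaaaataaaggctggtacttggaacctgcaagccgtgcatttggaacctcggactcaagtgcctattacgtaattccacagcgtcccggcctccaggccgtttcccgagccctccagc
In CCNB2, KIF11 and ZWINT the CHR letters begin at positions -29, -28 and -31 from the start, downstream of the nearest CCAAT letters in each. KIF20A holds CCAAT letters on the minus strand at positions -94 and -67, and the LMNB1 stretch holds none of the 4 motifs.

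Among the 15 largest differences toward KO were also genes outside the lists. PRSS3, the digestive protease mesotrypsin, stood at 0.0367 to 0.199 RPKM in the 4 WT libraries, at 2.39 and 2.16 RPKM in untreated KO clones 66 and 69, and at 51.0 and 41.0 RPKM in treated ones. It was thus detected at more than trace level in the KO clones alone, before and after treatment, and it has close trypsin paralogs. TAGLN3, a calponin-family protein, had 1 read or none in untreated libraries, 3 and 4 in treated WT clones, and 88 and 74 in treated KO clones 66 and 69. OLFML2B, an extracellular olfactomedin-domain protein, had responses of -0.62 and 0.28 in WT and 2.84 and 2.97 in KO, from 79 to 722 reads a library. The small RNAs SCARNA22 and SNORD88B rest on 0 to 30 and 1 to 18 reads a library.

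Of the 550 genes called lower in KO, or 3.32% of all genes tested, 38 (6.91%) belonged to one of the lists and 1 to a cell division list. Of the genes not called, 3.59% were in a list. The lists were drawn up with earlier results known. Contractile and actin cytoskeleton genes were among those called lower, with 5 of 24 called lower, none higher and a median difference of -0.45. SYNPO2, an actin-binding protein of muscle Z-discs, fell from 83.3 and 47.8 RPKM to 8.03 and 2.99 RPKM in WT and from 117 and 145 RPKM to 1.88 and 2.24 RPKM in KO. TAGLN, an actin cross-linker of smooth muscle and fibroblasts, fell from 299 and 365 RPKM to 136 and 155 RPKM in WT and from 311 and 325 RPKM to 77.6 and 60.4 RPKM in KO. TPM1, a tropomyosin, and the matricellular proteins CCN1 and CCN2 also fell further in KO, with differences of -0.68, -0.50 and -1.07. The untreated levels of TAGLN and TPM1 overlapped between genotypes and the treated ones did not. Without KO clone 69, 1 gene of the list was called, and without WT clone 54, 3.

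Lysosomal genes were called lower for 8 of 37 and higher for 1, GUSB, with a median difference of -0.27. Of all genes tested, 3.32% were called lower. SQSTM1, the autophagy receptor p62, stood at 265 and 272 RPKM without and 299 and 308 RPKM with 4-OHT in WT. In KO it went from 235 and 242 RPKM to 148 and 118 RPKM, a difference of -1.02 ± 0.14 (limma adjusted p = 0.017). NPC2, a cholesterol carrier, and CTSO, a cathepsin, had differences of -0.60 and -0.83. Of the list, 2 were called without KO clone 66 or WT clone 54, 1 without WT clone 15 and none without KO clone 69.

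Of 44 secreted factors of senescent fibroblasts, 7 were called lower and 1 higher, and the median difference was -0.04. Of all genes tested, 3.32% were called lower and 4.78% higher. Over the list 3 were called without KO clone 66 or KO clone 69 and 5 without WT clone 54. MMP3, stromelysin 1, rose in WT from 20.8 and 20.5 RPKM to 100 and 128 RPKM, and in KO went from 31.0 and 24.3 RPKM to 42.2 and 23.5 RPKM, a difference of -2.26 ± 0.21 (limma adjusted p = 0.0044). Treated WT clones were above all other libraries. MMP10, stromelysin 2, went the other way: it stood at 2.77 and 1.77 RPKM without and 2.26 and 1.27 RPKM with 4-OHT in WT, and rose from 0.447 and 0.392 RPKM to 2.60 and 2.20 RPKM in KO. GDF15, a stress-induced cytokine, rose by 2.16 in WT and 1.17 in KO, and TNFRSF11B, the decoy receptor osteoprotegerin, turned, with 0.31 and 0.30 in WT and -0.40 and -0.29 in KO. The interleukins rose in both genotypes. IL1B reached 99.1 and 87.6 RPKM in treated WT and 34.1 and 42.4 RPKM in treated KO clones, from 1.93 to 3.38 RPKM, a difference of -1.23 ± 0.27 that missed the threshold (limma adjusted p = 0.0505). CXCL8 reached 74.2 and 89.8 RPKM in treated WT and 15.7 and 16.7 RPKM in treated KO clones, but its untreated level in KO was 0.0504 and 0.444 RPKM and the difference of -1.75 ± 0.56 was not called (limma adjusted p = 0.12). IL1A and MMP1 were not called either, with differences of -0.88 and 0.89, of which that of IL1A rests on 0 to 34 reads a library.

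Targets of p53 had median responses of 0.90 in WT and 0.75 in KO over 48 tested, with 4 called lower in KO and 2 higher. CDKN1A rose from 132 and 161 RPKM to 714 and 690 RPKM in WT and from 72.9 and 81.8 RPKM to 332 and 251 RPKM in KO. Both KO clones lay below both WT clones at both times, but its responses (2.44 and 2.10 against 2.18 and 1.62) did not differ beyond the spread, with a difference of -0.37 ± 0.22 (limma adjusted p = 0.34). MDM2, which degrades p53, responded by 1.47 and 1.29 in WT and 0.89 and 0.31 in KO, also not called (-0.79 ± 0.21, limma adjusted p = 0.079). The genes called lower were GDF15, NINJ1, TP53INP1 and BCL2L1, the apoptosis inhibitor, which rose by 1.34 in WT and 0.36 in KO. Those called higher were DDB2, a DNA damage sensor, and E2F7, a repressor of E2F targets that is also in the cyclin and E2F list. PTCHD4, which turned, is outside the list. Without KO clone 69 no gene of the list was called, without WT clone 54 there was 1, and without WT clone 15 there were 3.

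The RAS-MAPK output genes had median responses of 2.03 in WT and 2.15 in KO, with 3 of 30 called higher and 3 lower. SPRY4, a Sprouty protein that dampens RAS signalling, rose by 3.93 and 3.60 in WT and 4.34 and 3.85 in KO and was not called. DUSP6, the phosphatase of ERK, rose less in KO (2.20 and 2.08) than in WT (3.03 and 3.03), a difference of -0.88 ± 0.10 (limma adjusted p = 0.0084). FOS, an AP-1 subunit, fell in every clone, from 218 and 153 RPKM to 12.3 and 10.7 RPKM in WT and from 190 and 194 RPKM to 47.4 and 41.2 RPKM in KO. DUSP1 fell further in KO (-0.99). ETV1, a transcription factor, rose more in KO (1.48), and the remaining calls were EGR1 (higher) and DUSP5 (lower). Without KO clone 69, 1 gene of the list was called, and without KO clone 66, 3.

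**Figure D5:**
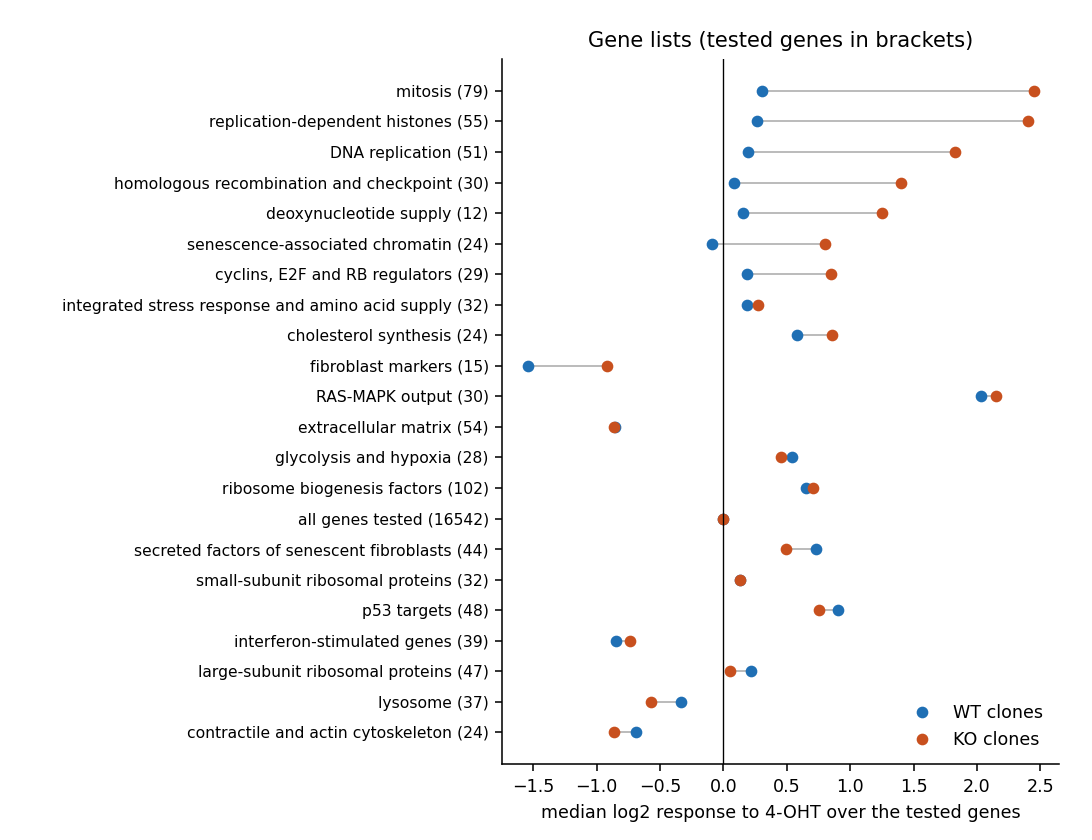
Median log2 response to 4-OHT in WT (blue) and KO clones (orange) over the tested genes of each list, ordered by the median difference. Mitosis, histone and replication lists are near 0 in WT and between 1.82 and 2.45 in KO, while the RAS-MAPK list lies above 2 in both genotypes.

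Ribosome genes, of interest because SNORA13 is a small nucleolar RNA and the study's title names ribosome biogenesis, were mostly not called. Of 102 ribosome biogenesis factors, 4 were called higher and 2 lower, or shares near those over all genes, and the median difference was 0.03. FBL, the methyltransferase fibrillarin, and RRS1, an assembly factor of the large subunit, rose more in KO, with differences of 0.59 and 0.81. SBDS, which helps to release eIF6 from the large subunit, turned: it rose from 85.6 and 85.7 RPKM to 114 and 108 RPKM in WT and fell from 92.4 and 98.7 RPKM to 81.4 and 80.4 RPKM in KO. UTP4 rose by 1.55 in WT and 0.68 in KO. NCL, nucleolin, responded by 0.61 and 0.46 in WT and 0.99 and 1.05 in KO (0.48 ± 0.10, limma adjusted p = 0.0504), and LYAR, a nucleolar regulator, by 2.55 and 2.16 in WT and 2.57 and 2.52 in KO. None of the 47 large-subunit and 32 small-subunit ribosomal protein genes was called at that threshold by limma, with median differences of -0.15 and -0.08. With limma-voom on recovered reads 1 and 3 of them were. No gene of the biogenesis list was called without KO clone 66, KO clone 69 or WT clone 54, and 3 were without WT clone 15.

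Matrix genes had median responses of -0.86 in each genotype. Of 54, 10 were called higher in KO and 4 lower. COL1A1 and COL3A1, the main fibrillar collagens of skin, fell less in KO: COL1A1 from 343 and 344 RPKM to 65.6 and 52.1 RPKM in WT and from 241 and 208 RPKM to 75.4 and 63.0 RPKM in KO. LOX and PLOD2, which modify lysines of collagen, went lower in KO. PLOD2 rose from 77.7 and 72.4 RPKM to 96.6 and 83.4 RPKM in WT and fell from 83.4 and 89.0 RPKM to 50.0 and 48.3 RPKM in KO. Of 15 fibroblast markers, 5 were called higher and 1, LUM, lower, and most of these are matrix genes too. Among markers of other cell types, KRT18 (0.52), CLDN1 (-1.75) and MITF (-1.22) were called, and 0 of 4 endothelial and 0 of 4 immune markers tested. Without KO clone 66 or KO clone 69, 2 matrix genes and no fibroblast marker were called, and without WT clone 54, 9 matrix genes.

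The remaining lists had few calls in number. Over all genes tested 4.78% were called higher, and the shares in the glycolysis, cholesterol and stress response lists were above this. In glycolysis and hypoxia, 4 of 28 were called higher, ENO1, TPI1, PFKP and NDRG1, and SLC2A1, the main glucose transporter, lower. In cholesterol synthesis, INSIG1, ACAT2 and EBP of 24 were called higher, with differences of 0.83 to 0.84. In the integrated stress response and amino acid supply, 2 of 32 were called higher and 1 lower. PHGDH, the first enzyme of serine synthesis, had responses of -0.76 and -0.68 in WT and 1.11 and 2.28 in KO. DDIT4 was also called higher. The gene called lower was STC2, a secreted glycoprotein. It rose from 11.3 and 13.5 RPKM to 38.9 and 34.2 RPKM in WT. In KO it went from 17.5 and 18.4 RPKM to 20.9 and 19.7 RPKM. Among 39 interferon-stimulated genes, PSMB9 was called higher and STAT2 lower. Without KO clone 66 or KO clone 69, none of the glycolysis and cholesterol genes was called. With no filter on low values, or with no trend and no robust moderation, no gene was called in these 4 lists or in the lysosome, p53, ribosome biogenesis and fibroblast marker lists.

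The 15 largest differences toward WT included 2 kinds of genes. Some were induced in WT and much less in KO: NDP, the secreted ligand norrin, had 0 reads in every untreated library, 109 and 49 in treated WT clones and 2 in each treated KO clone. KCTD4, a BTB-domain protein, reached 6.42 and 4.78 RPKM in treated WT and 0.946 and 0.660 RPKM in treated KO clones, from 0.0225 to 0.200 RPKM. TNFSF15, a cytokine, and CITED4, a transcriptional co-regulator, had differences of -2.79 and -2.62. The others were higher in untreated KO clones and fell to a lower or similar level. KRT34, a hair keratin, had responses of -0.43 and 0.08 in WT and -3.75 and -3.39 in KO, starting from 2.78 and 1.40 RPKM in WT and from 12.4 and 11.1 RPKM in KO. NTN4, the basement membrane protein netrin 4, fell from 174 and 116 RPKM to 19.6 and 22.7 RPKM in WT and from 214 and 197 RPKM to 4.10 and 4.71 RPKM in KO. ADAMTS5, an aggrecan protease, EDN1, endothelin 1, and PSG5 fell in all clones and further in KO, with differences of -2.72, -2.89 and -2.72. KRT4 and PTGIS ended at 0 reads in both treated KO clones and at 0 to 2 reads in the treated WT clones, so their differences (-2.90 and -3.21) depend on the pseudocount and on the untreated levels.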

How the data were processed

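The authors deposited gene-level RPKM values (reads scaled by transcript length and library total) for 8 libraries, made from stranded total RNA per the labels' protocols. The build GRCh38 and the tools edgeR, featureCounts and STAR are named, per the submitters' processing notes, without versions or settings. Column names ending in a minus sign were read as 4-OHT negative and the bare clone numbers as positive, a reading no label spells out.

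Gene lengths were taken from GENCODE transcripts where the transcript of a gene was listed there. Library totals and read counts were recovered from the steps of the RPKM values. With listed lengths, 100.0% of the values above 0 came out as whole reads within 0.1. For 6676 genes without a listed length it was inferred from these steps, so that share does not check them. The 45 duplicate rows of the pseudoautosomal region were left out. A gene was tested with at least 0.4254 counts per M reads (10 reads in the median library) in 2 libraries and 15 reads in all. RPKM values were scaled by TMM factors computed here (0.94 to 1.04), and log2(RPKM + 0.1) was fitted with limma 3.58.1 in R 4.3.3, with a term for each clone, intensity trend and robust moderation (2 residual degrees of freedom, median prior 3.67). The pseudocount understates changes of low genes. Tests are two-sided, with Benjamini-Hochberg adjustment over 16542 genes and a threshold of 0.05. Without and with 4-OHT are paired because both libraries come from the same clone. Deviations from the group means within a clone correlated at 0.309 for WT and 0.005 for KO.

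Lists were described by counts and medians, with no set test. The members and lists were chosen with earlier results of these data known. The text names a fixed set of genes and up to 4 members of each list with the smallest p. It also draws on the 15 largest differences each way and the 10 genes that turned furthest each way. Both rankings were made among called genes reaching a mean of 1 RPKM in a group. Y-linked genes, XIST and genes with only a clone-based name were left out of both. Other list members, and SMC, NUP, mitochondrial and autophagy genes, were named after their values were seen. The 26 lists cover mitosis, DNA replication, deoxynucleotide supply, histones, cyclins and E2F, CDK inhibitors, recombination and checkpoint, p53 targets, secreted factors, RAS-MAPK output, ribosome biogenesis, ribosomal proteins of each subunit, matrix, contractile genes, cholesterol, stress response, interferon, glycolysis, lysosome, senescence-associated chromatin and markers of 5 cell types. The 13 alternatives change the block, scaling, pseudocount, filter, moderation or model, or leave out a clone.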

Additional observations from a re-analysis of the deposited data

Results flagged for a closer look

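Where the response itself was tested for a difference between genotypes and passed, the result is listed here, as 791 genes with a higher and 550 with a lower response in KO. Genes named by the rule whose responses were called in opposite directions in WT and KO were the following, with the log2 difference of responses. Falling in WT and rising in KO were HIST1H4A (2.91), KIF20A (2.90), MND1 (2.72), LMNB1 (2.60), ASF1B (2.57), MYBL2 (2.53), RRM2 (2.51), STARD8 (2.50), HIST1H4I (2.47), HMGB2 (2.46), IQGAP3 (2.45), TK1 (2.22), UBE2Q2P2 (1.88), ATAD2 (1.59), HMGN2P3 (1.47) and HMGN2 (1.42). Rising in WT and falling in KO were FHOD3 (-2.67), DKK2 (-2.53), SNORD16 (-2.31), CRLS1 (-1.96), LRRN3 (-1.78), KCNN2 (-1.42), WFDC21P (-1.42), MT-ND3 (-1.38), NDST1-AS1 (-1.37), CSGALNACT2 (-1.28), PLOD2 (-1.07), TNFRSF11B (-0.65) and SBDS (-0.61).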

How the results depend on the processing

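No gene called in the difference of responses changed sign in any of the 13 alternatives, but the counts moved. Leaving out a clone could not change a sign, because both KO clones lay outside the range of the WT clones for every called gene. Changes of block, filter or moderation leave the estimate itself as it was. Only the changes of scaling, pseudocount or model could have changed a sign. Leaving out a clone gave 265 to 566 genes called higher, 76 to 326 lower, 26 to 59 that fell in WT and rose in KO, 13 to 43 that rose in WT and fell in KO, and 6084 to 9538 called in the KO response; the lone clone left in a genotype is then assumed to vary like the others. With no filter on low values 216 and 56 genes were called higher and lower, and 18 and 5 turned each way. With no trend and no robust moderation the counts were 363 and 97, with 36 and 11 turning. With limma-voom on the recovered reads they were 1431 and 1398, with 104 rising in WT and falling in KO. Without the replicate block, which ignores that libraries of a clone are paired, 721 and 509 genes were called, 1018 of the 1230 shared with the 1341 above, and 49 fell in WT and rose in KO. Scaling to library size only gave 41 that rose in WT and fell in KO. The cause of these changes was not tested. List medians near 0 changed sign when a clone was left out: they ran from -0.168 to 0.004 for interferon-stimulated genes, -0.028 to 0.096 for ribosome biogenesis factors (-0.006 without WT clone 54) and -0.172 to 0.075 for secreted factors. Genes of few reads are limited by depth.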

Other observations

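Of the 13 protein-coding messages of mitochondrial DNA, 11 were called lower and none higher, with median responses of 0.28 in WT and -0.59 in KO. Over all genes tested 3.32% were called lower and 4.78% higher. The groups in this section were picked after the values were seen, so their counts are descriptions. MT-CO1, a subunit of cytochrome c oxidase, had responses of 0.05 and 0.25 in WT clones 15 and 54 and -1.27 and -1.44 in KO clones 66 and 69, a difference of -1.51 ± 0.13. MT-CO3 had 0.06 and 0.50 in WT and -0.86 and -1.30 in KO. MT-ND1 and MT-ND2 were not called, with differences of -0.40 and -0.38. Reads of the mitochondrial genome made up 0.325 and 0.343% of untreated and 0.181 and 0.171% of treated KO libraries, and 0.212 to 0.263% of the WT libraries.

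Some genes of autophagy and of the proton pump that acidifies lysosomes were called lower as well. The shares over all genes tested, to set beside the counts here, were 3.32% called lower and 4.78% higher. Among LC3 family members and cargo receptors 6 of 11 were called lower and none higher. They include SQSTM1, which is also counted in the lysosome list above. MAP1LC3B, which coats the autophagosome membrane, had responses of 0.29 and 0.35 in WT and -0.76 and -0.58 in KO, a difference of -0.99 ± 0.12. GABARAPL1, of the same family, fell in each clone, with -2.21 and -1.98 in WT and -3.84 and -3.63 in KO. Of 18 V-ATPase subunits, 7 were called lower and none higher, over a range of differences from -1.56 to 0.18. The -1.56 was that of ATP6V0A4, which stood at 0.068 to 0.697 RPKM and was not called. The lowest called subunit was ATP6V0A1 at -1.07, and ATP6V1G1 was at -0.88 ± 0.10. On the other side, 8 of 19 nucleoporins of the NUP series were called higher and none lower, NUP107 with responses of 0.26 and 0.20 in WT and 1.34 and 1.33 in KO, and so were 5 of 6 SMC proteins, which form the cohesin, condensin and SMC5/6 complexes; SMC5 was not called.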
